A study of Danio rerio with 6 samples.

Results

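Described here are 9 genes of heme synthesis, the red cell membrane and erythroid control in dissected hearts of zebrafish larvae. Enzymes of heme synthesis are encoded by *alas2*, *urod*, *cpox* and *fech*, and an iron importer of mitochondria by *slc25a37*. Proteins of the red cell membrane and the skeleton beneath it are encoded by *slc4a1a*, *epb41b* and *sptb*, and an erythroid transcription factor by *gata1a*. The 9 genes were taken by symbol, and each was found once among the 31701 genes measured. Whole hearts were dissected by hand at 57 to 59 hours post fertilization from larvae labelled mutant (3 libraries) and from their wild-type (WT) siblings (3 libraries), with 23 hearts pooled for each biological replicate. The title of the series names Wwtr1 (Taz), a transcriptional coactivator of the Hippo pathway; the sources used here give neither the allele nor the zygosity of the mutants. Tissue, stage and dissection were the same for both genotypes.

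Heme is built from glycine and succinyl-CoA in a chain of enzymes that begins and ends in the mitochondrion, and in red cells the erythroid form of the first enzyme sets its pace. The finished heme is placed into globin, and the cell that carries it is held in shape by a spectrin skeleton tied to the membrane through the anion exchanger and an adaptor protein. In zebrafish, mutants of most of these genes were first found as embryos with pale or fragile blood and were given wine or vampire names, such as sauternes (*alas2*), yquem (*urod*), dracula (*fech*), frascati (*slc25a37*), retsina (*slc4a1a*), merlot (*epb41b*), riesling (*sptb*) and vlad tepes (*gata1a*). At this stage the blood that passes through the heart consists mainly of primitive erythrocytes, so a pool of hearts carries their RNA beside that of the heart wall. How much of the signal of each gene came from red cells and how much from the heart wall was not measured.

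Levels are given as the authors' normalised read counts, which they rounded to whole numbers. The table holds no transcript lengths, so levels of different genes are not compared with each other. The values summed to between 21068538 and 21968397 in mutant libraries and between 19187058 and 25227868 in WT libraries, of which ribosomal RNA features took between 40.4% and 43.9%. Transcripts of *wwtr1* stood at 128, 151 and 100 in mutant replicates 1 to 3, against 362, 416 and 471 in WT replicates 1 to 3, so this gene separated the labelled genotypes. Cardiomyocyte markers were abundant in every library (8 of 8 found, with summed values of 185599 to 192736 in mutant and 181139 to 212020 in WT hearts). The 8 erythrocyte markers are 3 of the 9 genes and otherwise globin genes, and all were found. Their summed value ranged from 85389 to 148035 in mutant and from 91892 to 104226 in WT hearts. In whole hearts, a change in the number of red cells and a change in RNA per red cell cannot be told apart.

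None of the 9 genes differed between mutant and WT hearts past the test (limma on log2(value + 1), Benjamini-Hochberg adjusted p under 0.05 over the 18901 genes tested; smallest adjusted p = 0.509). Over all genes tested, 0.037% were called, 0.0106% as higher in mutant hearts. All 9 genes reached the value filter (10 or more in 3 or more libraries). At an unadjusted p under 0.05 stood 2 of the 9, *alas2* and *slc4a1a*, against 6.6% of all genes tested. The mutant and WT libraries did not overlap for 2 of the 9, *slc4a1a* (higher in mutant) and *cpox* (lower in mutant), against 11.1% of all genes tested, 5.57% as higher and 5.53% as lower in mutant hearts. The median log2 difference of the 9 genes, mutant minus WT, was 0.09, with 6 above 0 and 3 below, against a median of −0.003 and 49.5% above 0 over all genes tested.

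**Figure D1:**
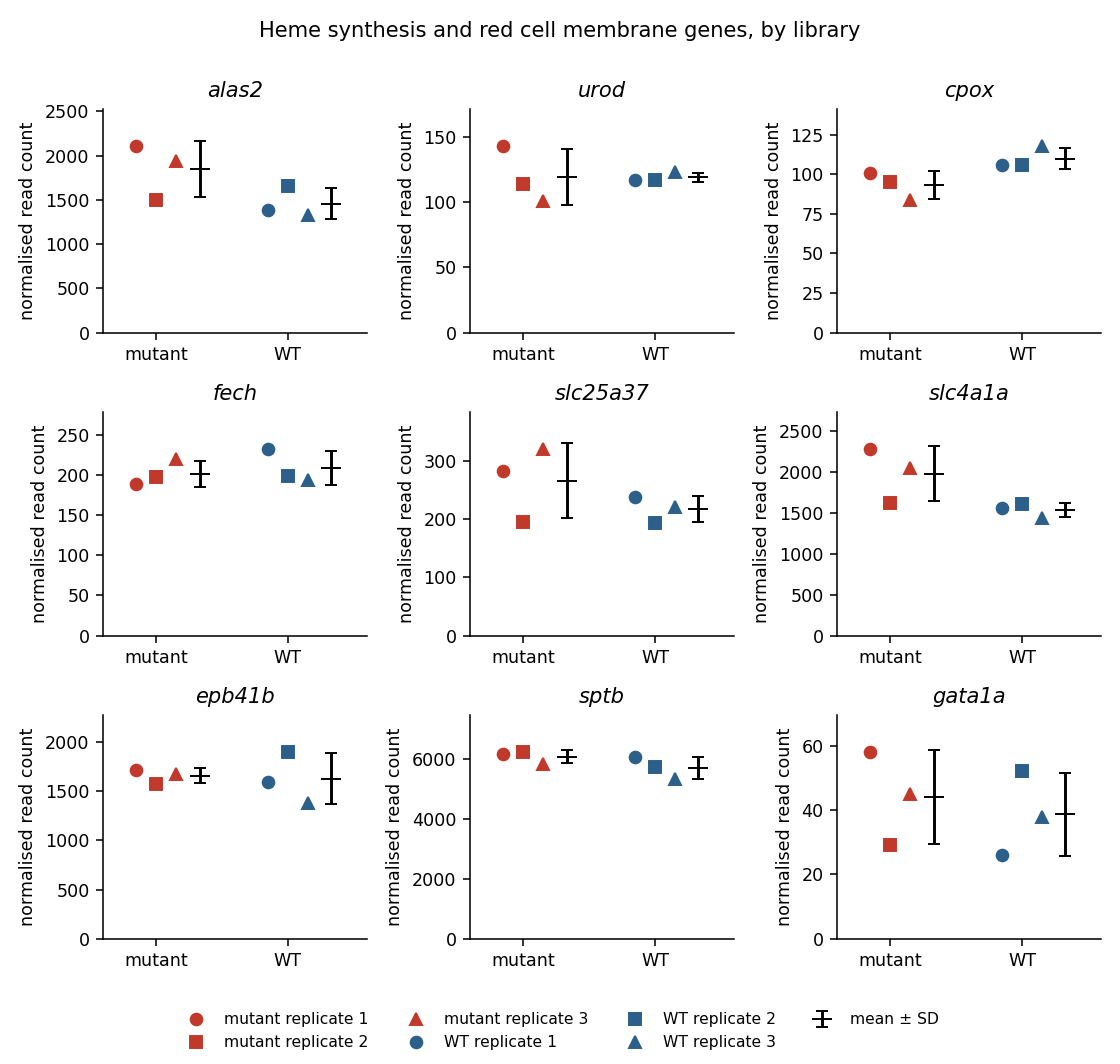
Normalised read count of each of the 9 genes in each library, with mutant libraries in red and WT libraries in blue, symbols marking replicates 1 to 3, and the mean ± SD in black (n = 3 each); each panel has its own axis from 0. Mutant replicates 1 and 3 stand above every WT library for *alas2*, *slc4a1a* and *slc25a37*, while mutant replicate 2 lies among or beside the WT libraries for these genes.

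The first enzyme of the pathway in red cells is 5-aminolevulinate synthase 2, encoded by *alas2* (ENSDARG00000038643; GRCz10 chromosome 8, 21321758 to 21338179, plus strand). Its transcripts stood at 2109, 1493 and 1933 in mutant replicates 1 to 3, against 1382, 1660 and 1327 in WT replicates 1 to 3. The groups overlapped, because mutant replicate 2 lay below WT replicate 2 while mutant replicates 1 and 3 lay above every WT library. The means were 1845 ± 317 in mutant and 1456 ± 179 in WT hearts (SD, n = 3 each). The log2 difference was 0.33 (SE 0.122, limma adjusted p = 0.622). Leaving out mutant replicate 2 gave a log2 difference of 0.48, and leaving out mutant replicate 1 gave 0.23. The last 3494 bases of the gene's span are shared with *ela2l*, an elastase gene on the other strand, whose own values were 9 to 21; the sources used here do not say whether the counting used strand.

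Uroporphyrinogen decarboxylase, which works in the cytosol in the middle of the chain, is encoded by *urod* (ENSDARG00000006818; chromosome 2, 27900534 to 27920169, minus strand). It stood at 143, 114 and 101 in mutant replicates 1 to 3, against 117, 117 and 123 in WT replicates 1 to 3. The mutant values spread to both sides of the narrow WT range. The means were nearly equal, at 119 ± 21.5 in mutant and 119 ± 3.46 in WT hearts, and the log2 difference was −0.01 (SE 0.163, limma adjusted p = 0.996). Its 95% interval ran from 0.78-fold to 1.26-fold.

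Coproporphyrinogen oxidase follows, encoded by *cpox* (ENSDARG00000062025; chromosome 8, 18566030 to 18582931, minus strand). It stood at 101, 95 and 84 in mutant replicates 1 to 3, against 106, 106 and 118 in WT replicates 1 to 3. Every mutant library lay below every WT library; the nearest pair was 101 in mutant replicate 1 against 106 in WT replicates 1 and 2. The means were 93.3 ± 8.62 in mutant and 110 ± 6.93 in WT hearts, with a log2 difference of −0.24 (SE 0.16, limma adjusted p = 0.857).

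Ferrochelatase, which inserts iron into the finished ring, is encoded by *fech* (ENSDARG00000003462; chromosome 21, 1622166 to 1644440, plus strand). It stood at 188, 197 and 219 in mutant replicates 1 to 3, against 232, 199 and 194 in WT replicates 1 to 3. Both groups covered much the same range, with the lowest value in mutant replicate 1, the library in which *alas2* was highest. The log2 difference was −0.05 (SE 0.128, limma adjusted p = 0.977), and its 95% interval ran from 0.80-fold to 1.17-fold.

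Mitoferrin 1, which brings iron into the mitochondria of developing red cells, is encoded by *slc25a37* (ENSDARG00000073743; chromosome 8, 50202096 to 50229269, plus strand). It stood at 282, 195 and 320 in mutant replicates 1 to 3, against 237, 194 and 221 in WT replicates 1 to 3. Mutant replicates 1 and 3 were the highest of the 6 libraries, and mutant replicate 2 matched the lowest WT library to within 1 unit. The means were 266 ± 64.1 in mutant and 217 ± 21.7 in WT hearts, with a log2 difference of 0.26 (SE 0.164, limma adjusted p = 0.847). This difference was 0.47 without mutant replicate 2 and 0.11 without mutant replicate 3.

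Among the membrane genes, *slc4a1a* (ENSDARG00000012881; chromosome 3, 19916121 to 19944785, minus strand) encodes the anion exchanger band 3, which swaps bicarbonate for chloride and anchors the skeleton. It stood at 2282, 1619 and 2047 in mutant replicates 1 to 3, against 1564, 1610 and 1444 in WT replicates 1 to 3. The groups did not overlap, but mutant replicate 2 exceeded WT replicate 2 by only 9 units. The means were 1983 ± 336 in mutant and 1539 ± 85.7 in WT hearts, and the log2 difference of 0.35 was the largest among the 9 genes (SE 0.112, limma adjusted p = 0.509). Without mutant replicate 2 it was 0.49 and without mutant replicate 1 it was 0.24.

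The adaptor that joins spectrin to the membrane is encoded by *epb41b* (ENSDARG00000029019; chromosome 16, 26576173 to 26614727, plus strand). It stood at 1714, 1569 and 1677 in mutant replicates 1 to 3, against 1596, 1894 and 1380 in WT replicates 1 to 3. The mutant values lay inside the WT range, whose ends were WT replicates 2 and 3. The log2 difference was 0.04 (SE 0.106, limma adjusted p = 0.979).

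Beta-spectrin, the rod of the membrane skeleton, is encoded by *sptb* (ENSDARG00000030490; chromosome 17, 38619132 to 38651437, plus strand); in mammals this gene is also used in striated muscle. It stood at 6159, 6215 and 5813 in mutant replicates 1 to 3, against 6042, 5735 and 5306 in WT replicates 1 to 3. It was the steadiest of the 9 genes among mutant libraries, with a coefficient of variation of 3.59%, and its highest value was in mutant replicate 2, where *alas2* and *slc4a1a* were lowest among mutants. The log2 difference was 0.09 (SE 0.085, limma adjusted p = 0.92), with a 95% interval from 0.94-fold to 1.21-fold.

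The transcription factor Gata1, which drives red cell genes including those for heme synthesis and globin, is encoded by *gata1a* (ENSDARG00000013477; chromosome 11, 25174298 to 25181240, minus strand). It stood at 58, 29 and 45 in mutant replicates 1 to 3, against 26, 52 and 38 in WT replicates 1 to 3. The highest value was 2 times the lowest within each genotype, and the groups overlapped almost fully. The log2 difference was 0.18 (SE 0.316, limma adjusted p = 0.967), and its 95% interval ran from 0.71-fold to 1.81-fold. This difference was −0.069 without WT replicate 1 and 0.45 without mutant replicate 2. What the low values of *gata1a* add to the SE was not tested.

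**Figure D2:**
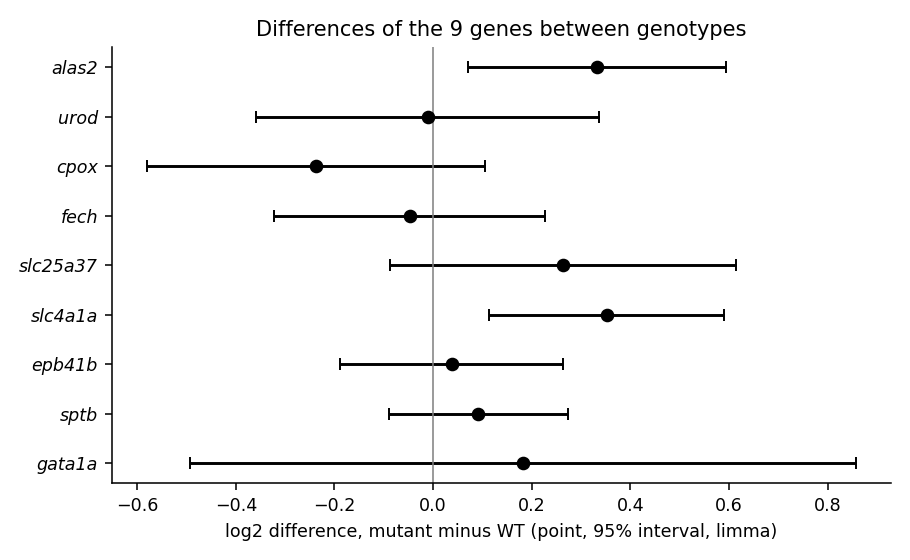
Log2 difference, mutant minus WT, of each of the 9 genes on the horizontal axis (points) with its unadjusted 95% interval from limma (bars). The intervals of *alas2* (0.07 to 0.59) and *slc4a1a* (0.11 to 0.59) lie above 0, those of the other genes cross 0, and no gene passed after adjustment over 18901 genes.

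The profiles of the 9 genes over the libraries were not equally alike. No baseline for noise was set beside the distances given below. The profile of a gene was taken as its log2 deviations from its own mean over the 6 libraries, and 2 profiles were compared by the root mean square (RMS) of their differences, in log2 units. Of the 36 pairs, *alas2* and *slc4a1a* were the most alike (RMS 0.0683), although 1 encodes an enzyme and the other a membrane protein. For both, mutant replicate 1 was the highest library, mutant replicate 3 the second, and WT replicate 3 the lowest. Next came *fech* and *sptb* (0.124), *epb41b* and *sptb* (0.128) and *urod* and *cpox* (0.141). The RMS is not scaled to the size of the deviations, so genes that vary little lie close whatever their order. Of the closest such pair, *fech* was highest in WT replicate 1 and *sptb* in mutant replicate 2. The 3 other heme enzymes among the 9 genes were farther from *alas2*, whose RMS was 0.262 with *urod*, 0.288 with *fech* and 0.357 with *cpox*. *gata1a*, which had the lowest values of the 9 genes (26 to 58), had an RMS between 0.27 (from *alas2*) and 0.476 (from *fech*) to the other genes. What low read counts add to these distances was not tested.

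**Figure D3:**
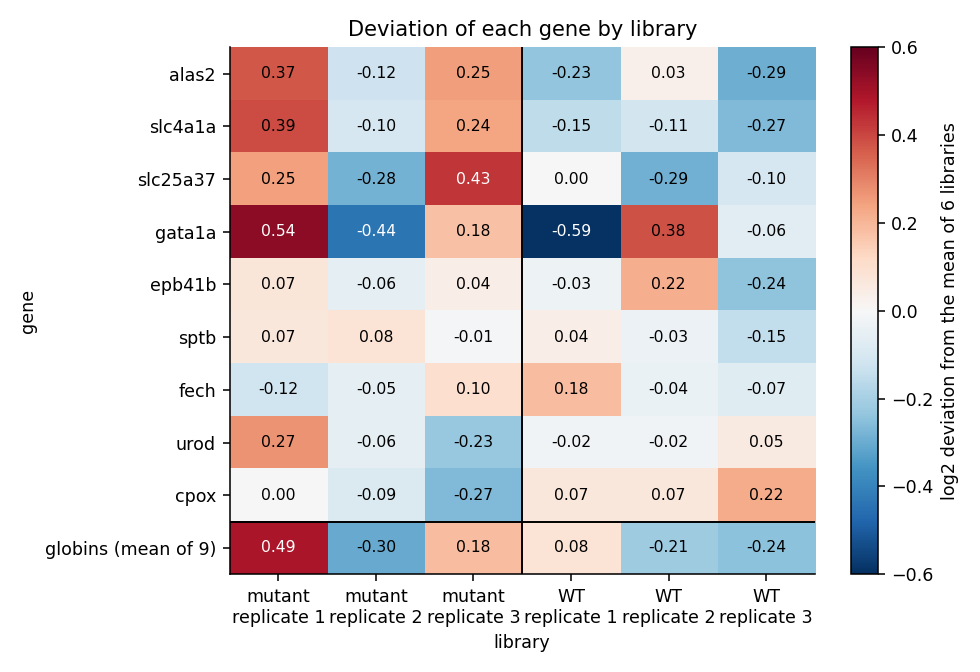
Log2 deviation of each gene (rows) from its own mean over the 6 libraries (columns, mutant libraries on the left), with the mean over 9 tested globin genes in the bottom row; red is above and blue below the mean. *alas2*, *slc4a1a*, *slc25a37* and the globins are above their mean in mutant replicates 1 and 3 and below it in mutant replicate 2, as are *gata1a* and *epb41b*, while *sptb*, *fech*, *urod* and *cpox* do not show this order.

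Globin transcripts, the main product of red cells, were also summed in each pool. The erythrocyte markers that are not among the 9 genes are globin genes, so both sums share transcripts. Neither sum tells the number of red cells from the RNA per red cell. The summed value of the 11 globin genes matched from the list was 230676, 132668 and 189492 in mutant replicates 1 to 3, against 159109, 144971 and 140114 in WT replicates 1 to 3. Mutant replicate 1 was the highest and mutant replicate 2 the lowest of the 6, so the mutant range enclosed the WT range. The globin sum varied 1.74-fold among mutant libraries and 1.14-fold among WT libraries, and its coefficient of variation was 26.7% in mutant and 6.67% in WT hearts. Mutant replicate 2 was the lowest mutant library for 9 of 9 tested globin genes and for 5 of the 9 genes described here, against 34.4% of all genes tested. Some of these globin genes are close copies of each other, so reads may have been split among them in the authors' counting. Their sequences were not compared. The list genes *hbbe1.3*, *hbba1* and *hbba2* were not matched and are not in the sum.

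Set against globin, the genes showed different patterns. Per 1000 units of the globin sum, *alas2* stood at 9.14, 11.3 and 10.2 in mutant replicates 1 to 3, against 8.69, 11.5 and 9.47 in WT replicates 1 to 3. The means of this ratio were 10.2 ± 1.06 in mutant and 9.87 ± 1.43 in WT hearts (SD, n = 3 each), and the groups overlapped. For *slc4a1a* the same ratio was 10.97 ± 1.16 in mutant and 10.4 ± 0.645 in WT hearts, and for *slc25a37* it was 1.46 ± 0.233 in mutant and 1.47 ± 0.121 in WT hearts. Among mutant libraries the coefficient of variation of the ratio was below that of the level for these 3 genes, at 10.4% against 17.2% for *alas2*, 10.6% against 17% for *slc4a1a* and 16% against 24.1% for *slc25a37*. Among WT libraries it was below for *slc25a37* (8.24% against 10%) but above for *alas2* (14.4% against 12.3%) and *slc4a1a* (6.19% against 5.57%). For *gata1a* it was likewise below among mutant libraries (6.99% against 33%) and above among WT libraries (37% against 33.7%).

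Among mutant libraries the remaining 5 genes varied more per globin than in level. The globin sum had a coefficient of variation of 26.7% there, so any steady gene gains spread in this ratio by arithmetic. The ratio was not taken over all genes. For *sptb* the ratio was 26.7, 46.9 and 30.7 in mutant replicates 1 to 3, against 38.0, 39.6 and 37.9 in WT replicates 1 to 3. Among mutant libraries its coefficient of variation was 30.7% per globin and 3.59% in level. The same held for *fech* (29.1% per globin, 7.92% in level), *cpox* (29.9% and 9.24%), *epb41b* (24% and 4.56%) and *urod* (25.2% and 18%). Among WT libraries the order was the other way for *sptb* (2.46% per globin, 6.49% in level) and *fech* (3.29% and 9.91%), and the same for *cpox* (11.9% and 6.3%), *epb41b* (16.5% and 15.9%) and *urod* (8.83% and 2.91%). No gene of the 9 separated the genotypes in this ratio, and the share of all genes that would do so was not counted. The part that the amount of blood in the pools has in the differences of *alas2*, *slc4a1a* and *slc25a37* was not tested.

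**Figure D4:**
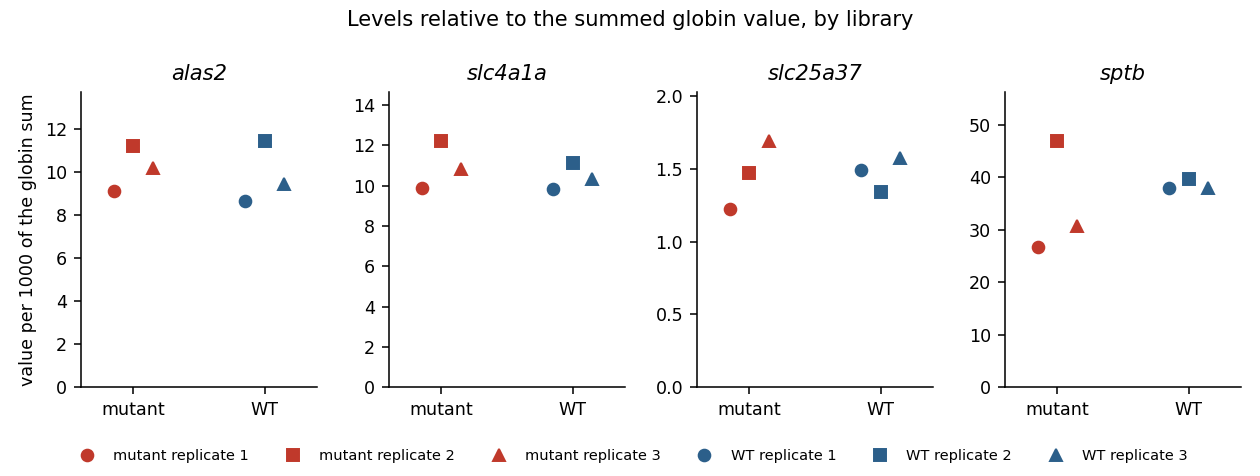
Value of 4 of the genes per 1000 units of the globin sum of the same library, with mutant libraries in red and WT libraries in blue and symbols marking replicates 1 to 3; each panel has its own axis from 0. Mutant and WT libraries overlap for all 4, and *sptb* ranges from 26.7 to 46.9 in mutant against 37.9 to 39.6 in WT hearts.

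The rest of the heme pathway was read from a list of its enzymes. Of 10 enzyme genes, all tested, 0 passed in either direction by limma. At an unadjusted p under 0.05 stood 1, *alas2*, against 6.6% of all genes tested. Of the 10, 3 had a log2 difference above 0 and 7 below, with a median of −0.02. Over all genes tested, 49.5% lay above 0 and the median was −0.003. The housekeeping form of the first enzyme, *alas1*, averaged 460 ± 27.2 in mutant and 465 ± 85.2 in WT hearts, with log2 difference −0.003 (limma adjusted p = 0.998). The difference between the log2 differences of *alas2* and *alas1* was not tested. The protoporphyrinogen oxidase gene *ppox*, named after its values were seen, was the other enzyme with a difference above 0.1, at 57.7 ± 4.93 in mutant and 48.7 ± 11.4 in WT hearts (log2 difference 0.26, limma adjusted p = 0.916). The porphyrin metabolism term of KEGG was carried by 26 genes, which include these enzymes and genes of heme breakdown. This set was chosen after the values were seen. Of the 26, 9 lay above 0 and 17 below, with a median of −0.04, where 49.5% of all genes tested lay above 0. By limma 0 passed, and 3 (*alas2*, *cox15* and *cp*) had an unadjusted p under 0.05, against 6.6% of all genes tested.

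Iron and heme transport and iron-sulfur assembly were covered by 27 genes, of which 25 were found and 23 tested. None passed by limma, and 3 had an unadjusted p under 0.05, against 6.6% of all genes tested. Of the 23, 14 lay above 0 and 9 below, with a median of 0.04, where 49.5% of all genes tested lay above 0. Every mutant library lay above every WT library for 2 and below for 1, against 5.57% and 5.53% of all genes tested. The highest read counts, not scaled for length, were those of *fth1a*, the ferritin heavy chain that stores iron, at 5232 ± 847 in mutant and 4932 ± 357 in WT hearts, and *tfr1a*, the transferrin receptor of red cells, at 505 ± 107 in mutant and 481 ± 31.2 in WT hearts. Both had their lowest mutant value in replicate 2 (4255 and 382). The 3 genes with an unadjusted p under 0.05, named after their values were seen, went in different directions. *steap3*, the ferric reductase of the endosome in mouse red cell precursors, stood at 56, 31 and 49 in mutant replicates 1 to 3, against 27, 22 and 15 in WT replicates 1 to 3, without overlap (log2 difference 1.05, SE 0.323, limma adjusted p = 0.494). The porphyrin transporter gene *abcb6b* stood at 21, 14 and 21 in mutant and 33, 37 and 30 in WT replicates, also without overlap (log2 difference −0.82, SE 0.312, limma adjusted p = 0.664). The transferrin receptor 2 gene *tfr2*, known in mammals from liver as well as red cells, stood at 29, 42 and 61 in mutant and 51, 83 and 74 in WT replicates (log2 difference −0.68, SE 0.281, limma adjusted p = 0.709). Liver and yolk markers summed to 2714 to 4544 in mutant and 4617 to 7652 in WT hearts. Of these markers 7 of 7 were found, 4 reached the value filter and 2 had a mean under 10. Their part in the *tfr2* difference was not tested.

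The membrane list held 20 genes, of which 18 were found and 17 tested. By limma 0 passed, and 4 had an unadjusted p under 0.05, against 6.6% of all genes tested. Of the 17, 14 lay above 0 and 3 below, with a median log2 difference of 0.09, and 3 had every mutant library above every WT library, where 49.5% of all genes tested lay above 0 and 5.57% were separated in this direction. The 4 are *slc4a1a* and 3 genes named after their values were seen. *cahz*, the carbonic anhydrase of zebrafish red cells, stood at 1616, 1158 and 1495 in mutant replicates 1 to 3, against 1146, 1161 and 908 in WT replicates 1 to 3 (log2 difference 0.40, SE 0.126, limma adjusted p = 0.496). As with *alas2*, mutant replicate 2 lay inside the WT range. *rhag*, the Rh-associated glycoprotein of the red cell membrane, stood at 1996, 1707 and 1699 in mutant and 1575, 1464 and 1462 in WT replicates, without overlap (log2 difference 0.26, SE 0.0892, limma adjusted p = 0.564). *aqp1a.1*, a water channel of red cells and endothelium, stood at 584, 507 and 576 in mutant and 430, 487 and 447 in WT replicates, without overlap (log2 difference 0.29, SE 0.101, limma adjusted p = 0.574). Endocardium and endothelium markers (8 of 8 found) summed to 11468 to 12484 in mutant and 9765 to 11114 in WT hearts, and their part in the *aqp1a.1* difference was not tested. The median of the list was −0.019 without WT replicate 3.

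The paralogues of the membrane genes were also read. *slc4a1b* averaged 20.3 ± 6.51 in mutant and 16.7 ± 5.51 in WT hearts, and *epb41a* at 53.7 ± 7.1 in mutant and 70.7 ± 18.6 in WT hearts. Neither passed by limma (adjusted p = 0.954 for *slc4a1b* and 0.853 for *epb41a*). The ankyrin genes that tie spectrin to band 3 also did not pass, with *ank1a* at 121 ± 23.8 in mutant and 98.3 ± 23.1 in WT hearts and *ank1b* at 41 ± 8.19 in mutant and 37 ± 7 in WT hearts (limma adjusted p = 0.856 and 0.971). These 4 genes were chosen for their kinship to the genes described above, not by their values.

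Of 19 erythroid regulators, 18 were found and 16 tested. By limma 0 passed, and 2 had an unadjusted p under 0.05, against 6.6% of all genes tested. Of the 16, 11 lay above 0 and 5 below, with a median log2 difference of 0.09, where 49.5% of all genes tested lay above 0. The highest read counts, not scaled for length, were those of *zfpm1*, a partner of Gata factors also known from heart, at 1774 ± 77.4 in mutant and 1668 ± 121 in WT hearts, and *jak2a*, the kinase below the erythropoietin receptor, at 605 ± 52.1 in mutant and 516 ± 60.3 in WT hearts. Named after their values were seen, *klf17*, a Krüppel-like factor known in zebrafish from primitive blood and the hatching gland, stood at 115, 78 and 87 in mutant replicates 1 to 3, against 69, 57 and 50 in WT replicates 1 to 3 (log2 difference 0.65, SE 0.209, limma adjusted p = 0.516). *tal1*, a factor of blood and endothelium, stood at 174, 134 and 144 in mutant and 106, 120 and 113 in WT replicates (log2 difference 0.40, SE 0.152, limma adjusted p = 0.644). Both had every mutant library above every WT library, which held for 2 of the 16 regulators and for 5.57% of all genes tested. Endocardium and endothelium markers summed to 11468 to 12484 in mutant and 9765 to 11114 in WT hearts. Their part in the *tal1* difference was not tested. The erythroid factor *klf1*, also named after its values were seen, averaged 78.3 ± 12.7 in mutant and 77.7 ± 9.82 in WT hearts.

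Of 14 globin genes in the list, 11 were found and 9 tested. None passed by limma, and 3 had an unadjusted p under 0.05, against 6.6% of all genes tested. Of the 9, 8 lay above 0 and 1 below, with a median log2 difference of 0.32, where 49.5% of all genes tested lay above 0. The genotypes were separated by 0 of the 9, against 11.1% of all genes tested in either direction. The highest read counts, not scaled for length, were those of *hbbe1.1*, at 53190 ± 15530 in mutant and 45930 ± 3870 in WT hearts, and *hbae3*, at 44920 ± 11280 in mutant and 35260 ± 1746 in WT hearts. Of the tested globins, 7 were highest in mutant replicate 1, as were 4 of the 9 genes described here, against 17.2% of all genes tested. The globin median was 0.52 without mutant replicate 2 and 0.13 without mutant replicate 1.

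**Figure D5:**
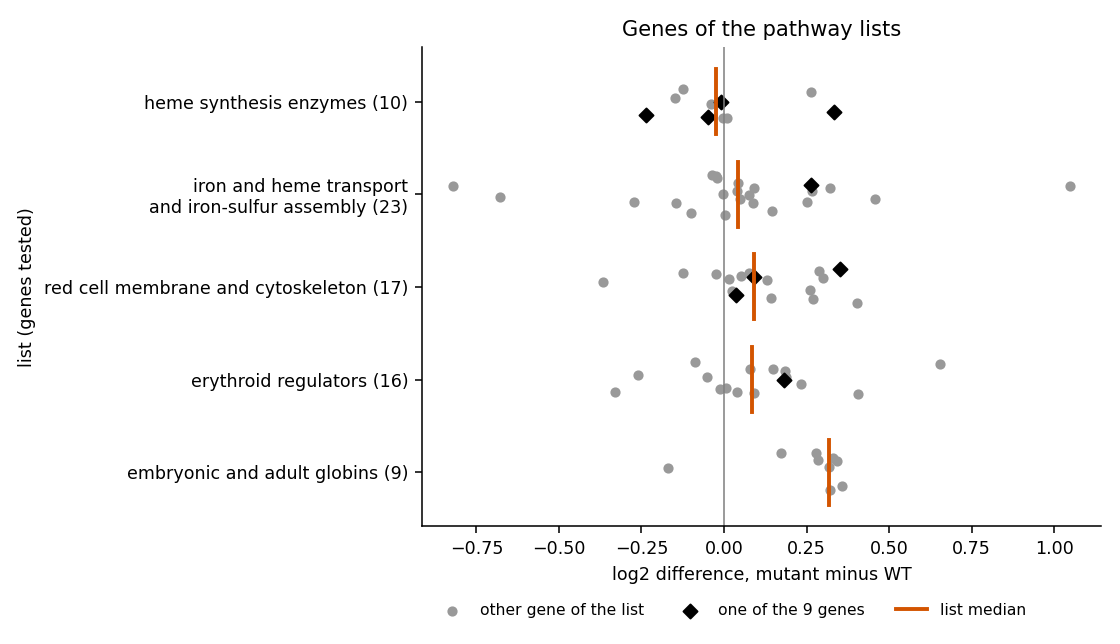
Log2 difference, mutant minus WT, of every tested gene in 5 lists (rows, with the number of genes tested), with the 9 genes as black diamonds, other genes as grey points and the list median as an orange line; points are spread vertically for legibility. The medians run from −0.02 for heme synthesis enzymes to 0.32 for globins, and no gene shown passed after adjustment.

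Among mutant libraries, white cell and thrombocyte markers did not follow the globin sum. Among WT libraries both were lowest in replicate 3, as was the globin sum. The leukocyte sum and the globin sum there fell in the same order from replicate 1 to replicate 3. Leukocyte markers (10 of 10 found, 1 with a mean under 10) summed to 596, 767 and 488 in mutant replicates 1 to 3, against 966, 789 and 650 in WT replicates 1 to 3, so the mutant library lowest in globin was the highest mutant library in white cell transcripts. Thrombocyte markers (6 of 6 found, 1 with a mean under 10) summed to 350, 480 and 502 in mutant and 448, 448 and 391 in WT replicates. No marker stood at 0 in all 6 libraries.

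The mean profile of the 9 genes deviated by at most 0.20 on the log2 scale in any library, since their separate profiles partly cancel. Among 10175 other tested genes with a mean value of at least 50 and a gene symbol, the 5 nearest to it by RMS over the 6 libraries were *arl6ip1* (0.0225), *csrnp1b* (0.0306), *ppp1cb* (0.0346), *trim8a* (0.037) and *tmem94* (0.039). None of the 5 is on the red cell lists or passed by limma, and their log2 differences ran from 0.07 to 0.17.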

How the data were processed

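RNA of 6 heart pools (3 mutant, 3 WT) was measured. Per the labels' protocols, 6.5 ng of total RNA entered a Clontech Pico Input library, sequenced as single reads of 75 nt. STAR 2.4.0a, featureCounts 1.4.5-p1 and the danRer10 (GRCz10) build are named per the submitters' processing notes. The values deposited by the authors are a score, read counts scaled between libraries and rounded by a method that the sources used here do not state. This was read from whole numbers missing at even steps in 3 libraries, so raw depth is unknown and no count model was run. Scaling by a common factor per library would act on all its genes alike and would not correct for its blood content. Whether the authors used such a factor is not stated.

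Values were analysed as log2(value + 1), which understates changes of low genes. Those reaching 10 in 3 or more libraries (18901 of 31701 genes) were fitted with limma 3.58.1 in R 4.3.3, genotype only, with a mean-dependent trend of variance; p-values were adjusted by Benjamini-Hochberg across these genes. The p-values set the difference between genotypes against the spread between pools, not between single animals. The script was tested on simulated data for these 18901 genes: of 50 genes changed 1.5-fold, 64% were called, and of 50 changed 2-fold, 94%. Each simulated gene took the spread typical of its mean value. Changed genes had a mean value of at least 50, which *gata1a* does not reach. Genes changed 3-fold and 4-fold were simulated alongside, so far more genes were changed than the 7 called here. These shares therefore do not give the power of the test for the 9 genes. Members and lists were chosen with earlier results of these data known. Besides the 9 genes, the text names list members that passed or the 2 with the highest mean value of each list, and the 5 genes nearest in profile; others are marked where named. Of the list genes, those absent by symbol were looked up by identifier in a gene name table. Alternatives were other pseudocounts, value filters, scalings, library weights, a replicate block and each library left out.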

Additional observations from a re-analysis of the deposited data

How the results depend on the processing

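No member was called under any of the 15 alternatives (smallest adjusted p 0.233, *slc4a1a*). *gata1a* had no value with a minimum of 50. With 1 library left out, log2 differences ran from 0.23 to 0.48 for *alas2*, −0.15 to 0.10 for *urod*, −0.11 to 0.032 for *fech*, −0.295 to −0.16 for *cpox*, 0.24 to 0.49 for *slc4a1a*, −0.074 to 0.155 for *epb41b*, 0.04 to 0.14 for *sptb*, −0.069 to 0.45 for *gata1a* and 0.11 to 0.47 for *slc25a37*; the sign turned for *urod*, *fech*, *epb41b* and *gata1a*, and the cause was not tested. The median of the membrane list ran from −0.019 to 0.155. Over all genes, calls higher in mutant (2) ran from 2 to 32 and lower (5) from 3 to 11 with 1 library left out. Scaling to the total without ribosomal RNA called 25 higher and 43 lower. The sample titles number the replicates and do not say whether same-numbered libraries belong together. Deviations of same-numbered libraries correlated at 0.022, −0.022 and −0.018 across genes, and those of differently numbered libraries at −0.049 to 0.061. The replicate block called 8 higher and 7 lower, and 0 members. Under these scalings the median of all genes moved by less than 0.01. A count model had been planned only for raw counts and was not run on these scaled values. Raw depth is unknown, so what it limits was not measured.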
